A study of Mus musculus with 2 samples.

Results

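The tumour necrosis factor (TNF) superfamily pairs trimeric ligands, mostly made as membrane proteins and in part shed, with receptors that carry cysteine-rich repeats outside the cell. Receptors with a death domain can recruit adaptors and caspases, most others bind TRAF adaptors and activate NF-kappaB and MAP kinases, and decoy receptors bind ligand without signalling. In skin wounds TNF is an early inflammatory cytokine, and RANK ligand, CD40 and related pairs link leukocytes with stromal cells. The genes were chosen by symbol: Tnf, Lta, Ltb, Fas, Fasl, Cd40, Cd40lg and every symbol that begins with Tnfsf or Tnfrsf. This gave 36 genes, 14 ligands and 22 receptors, of 19938 genes with a probe set naming them alone.

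Both groups came from TCF reporter mice, 1 week after wounding. They were labelled as cells of healing skin that were B-Gal negative or B-Gal positive, with healing wound cells as the source. A TCF reporter is read here as a transgene that marks cells with active TCF factors, the nuclear partners of beta-catenin. The sources used here give neither the strain, age and number of the mice nor the way cells were separated, and the design text speaks of homogenised tissue. Each group was 1 array, so no difference below has an error or a test, and the number of arrays limits the precision.

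Values are read as log2 expression, and a difference is the B-Gal positive value minus the B-Gal negative one. A gene is called expressed when at least 1 array exceeds a floor of 5.59, the level under which 95% of olfactory and vomeronasal receptor gene values lay; those receptor genes are not counted as expressed. Where 1 array lies under the floor, the fold is computed against the floor and given as "at least". Macrophage markers and stromal markers differed widely between the arrays: 13 of 13 macrophage markers were at least 2-fold higher and 10 of 10 fibroblast markers at least 2-fold lower on the positive array. In such bulk samples, fewer cells of a type and less RNA per cell cannot be told apart.

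The receptors Tnfrsf11a, Cd40, Tnfrsf1b and Tnfrsf21 and the ligands Tnf, Tnfsf9 and Tnfsf15 were higher on the B-Gal positive array. The receptors Tnfrsf23, Tnfrsf11b, Tnfrsf10b and Tnfrsf18 were lower. Of the 36 members, 7 were at least 2-fold higher and 4 at least 2-fold lower, together 30.6%, where 16.3% of all 19938 genes differed this much (7.23% higher and 9.08% lower). Among the 32 expressed members the share was 34.4%, against 22.6% of the 13784 expressed genes (9.92% higher and 12.7% lower). Once values below the floor were set to it, 6 were higher (9.55% of expressed genes) and 3 lower (11.6%), 21.2% of expressed genes in all, since Tnfsf15 and Tnfrsf18 dropped out. Over the 22 members above the floor on both arrays, 6 were higher (10.2% of such genes) and 1 lower, Tnfrsf23 (10.6%), with 20.8% of such genes in either direction. The members' differences had a median of 0.06 on the log2 scale, the same as over all expressed genes (0.06). Of the expressed members, 11 differed by less than 0.5 and 10 by 0.5 to under 1. No member is known from these arrays to differ beyond the variation between mice, which was not measured.

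**Figure D1:**
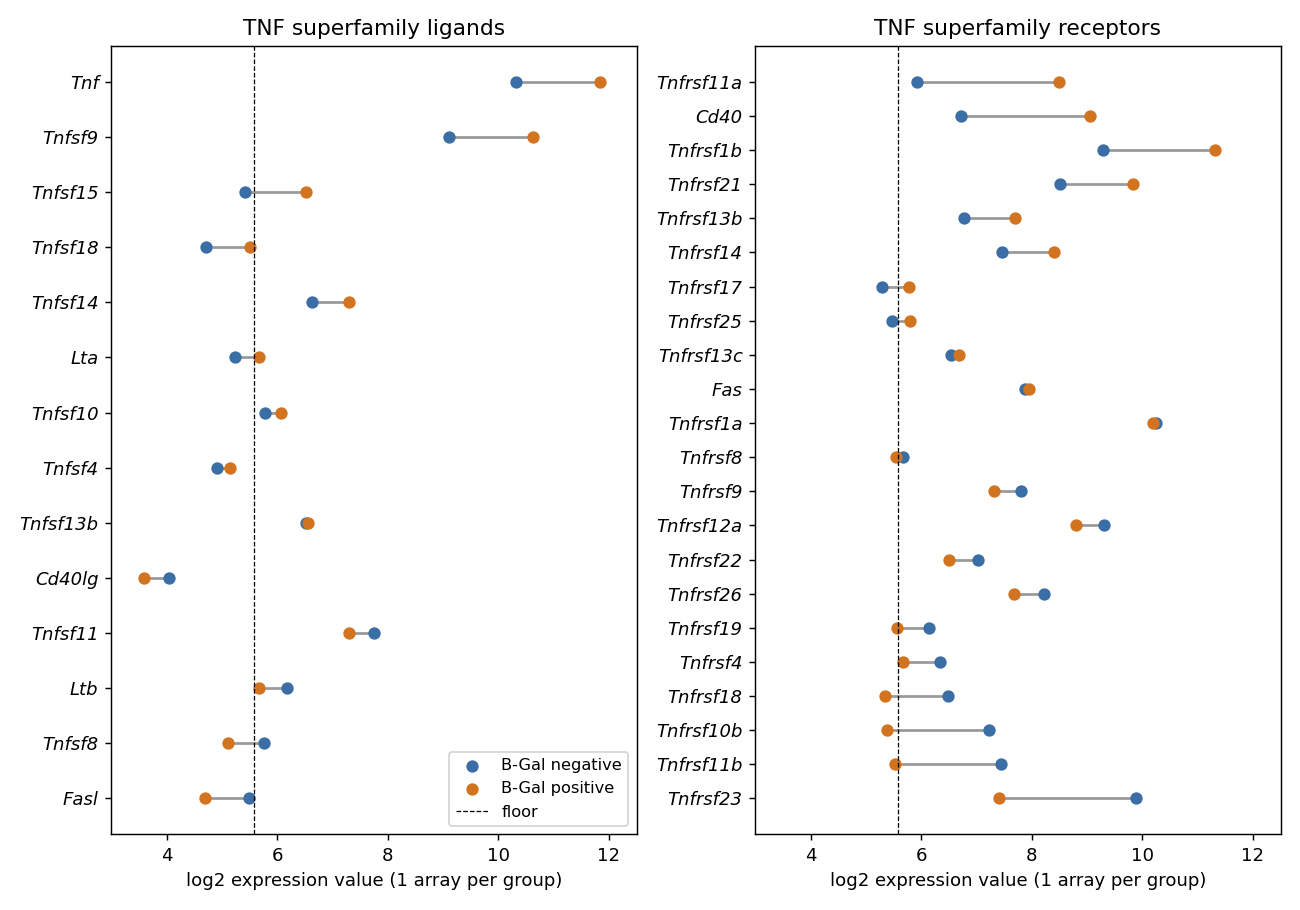
Log2 expression value (x axis) of the 14 ligands (left) and 22 receptors (right) on the B-Gal negative array (blue) and the B-Gal positive array (orange), 1 array per group, sorted by difference, with the floor of 5.59 as a dashed line. Tnf and Tnfrsf1b are right of 9 on both arrays, and 4 ligands lie left of the floor on both.

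Among the ligands, Tnf and Tnfsf9 were the clearest differences. Of the 10 expressed ligands, 3 were at least 2-fold higher on deposited values and 0 lower, beside 9.92% and 12.7% of expressed genes. Tnf, the founding inflammatory cytokine of the family, had log2 values of 10.33 on the negative and 11.84 on the positive array. It was thus 2.86-fold higher, a difference of 1.52, and well above the floor in both. Tnfsf9, a co-stimulatory ligand of activated antigen-presenting cells, had values of 9.12 and 10.63 and was 2.85-fold higher. Tnfsf15, the ligand of the death-domain receptor Tnfrsf25, had 5.42 and 6.52. Its deposited difference was 1.10, but only the positive array exceeded the floor, so the fold is at least 1.91.

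The other ligands differed less. Tnfsf14, which binds both Tnfrsf14 and the lymphotoxin beta receptor, had 6.64 and 7.30, a difference of 0.66. Tnfsf11, the RANK ligand that drives osteoclast formation, had 7.76 in B-Gal negative and 7.30 in B-Gal positive cells, a difference of -0.46. Both ligands were above the floor on both arrays, on opposite sides of 0. Tnfsf13b, the B cell survival factor BAFF, had 6.51 and 6.56, a difference of 0.05 that turned to -0.03 under a loess fit. Tnfsf10, the death ligand TRAIL, had 5.79 and 6.08, both close to the floor. For neither of these ligands was the difference over 0.3 in size.

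The lymphotoxin genes lay near the floor. Ltb, which anchors lymphotoxin to the membrane, had 6.18 and 5.66, and Lta, its secreted partner, 5.24 and 5.67. Tnfsf8, the CD30 ligand, was above the floor only in B-Gal negative cells (5.76, against 5.11). The remaining 4 ligands were under the floor on both arrays: Cd40lg, Fasl, Tnfsf4 and Tnfsf18, all known mainly from T cells or antigen-presenting cells. Their values ran from 3.59 to 5.51. Of the 8 T and NK cell markers expressed, 2 were at least 2-fold lower in B-Gal positive cells and 1 higher, Cd4 (2.94-fold), which macrophages can also express. Ncr1, under the floor on the positive array, was at least 1.03-fold lower (5.63 and 4.05). For Il2rb the value was at least 4.36-fold lower, and for Cd3g at least 3.42-fold. Their part in the ligand values was not tested.

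The ligands Tnfsf12 (TWEAK) and Tnfsf13 (APRIL) share 1 probe set, which also names their read-through transcript Tnfsfm13, and are not among the 36. That probe set had 7.02 in B-Gal negative and 8.49 in B-Gal positive cells, 2.78-fold higher. Which of the 3 genes carried the difference cannot be told from it.

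Among the 13 receptors that signal through TRAF adaptors, Tnfrsf11a, Cd40 and Tnfrsf1b were higher by over 4-fold on deposited values. Of all expressed genes, 8.73% differed by at least 4-fold in either direction. Tnfrsf11a, the receptor RANK of osteoclast precursors and other myeloid cells, had 5.93 in B-Gal negative cells, close to the floor, and 8.49 in B-Gal positive cells. At 5.93-fold it had the largest difference of the 36 genes in this direction. Cd40, through which T cells activate macrophages, dendritic cells and B cells, had 6.72 and 9.06 and was 5.08-fold higher. Tnfrsf1b, the TNF receptor found mainly on leukocytes, had 9.30 and 11.31 and was 4.02-fold higher. Its log2 difference of 2.01 became 1.99 under a loess fit and 1.97 after quantile normalization, just under 4-fold. All 3 receptors were above the floor on both arrays.

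Smaller differences in the same direction were seen for Tnfrsf13b, the receptor TACI for BAFF and APRIL (6.78 and 7.71, 1.91-fold), and for Tnfrsf14, the receptor HVEM (7.47 and 8.40, 1.90-fold). Neither reached 2-fold, and both stood just under it. Tnfrsf13c, the BAFF receptor of B cells, had 6.54 and 6.69. Tnfrsf17, the plasma cell receptor BCMA, was above the floor only in B-Gal positive cells (5.78, against 5.30). The B cell markers Ms4a1, Cd79a and Pax5 were under the floor on both arrays, while Cd79b was 2.27-fold higher and Blnk and Cd22 were higher by at least 19.4-fold and 3.27-fold.

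The receptors of activated T cells were not higher. Tnfrsf18, the receptor GITR of regulatory and activated T cells, had 6.48 in B-Gal negative and 5.34 in B-Gal positive cells. The deposited difference was -1.14, which as a bound from the floor is at least 1.86-fold lower. Tnfrsf4, the co-stimulatory receptor OX40, had 6.34 and 5.66, a difference of -0.67. Tnfrsf9, the receptor of the Tnfsf9 ligand, had 7.81 and 7.32, a difference of -0.49, opposite in sign to its ligand. Tnfrsf8, the receptor CD30, lay at the floor (5.68 and 5.54).

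Receptors known from stromal and epithelial cells had lower values too, without reaching 2-fold. Tnfrsf12a, the TWEAK receptor Fn14 that is induced in injured tissue, had 9.30 and 8.79, a difference of -0.51. Tnfrsf19, the receptor TROY, known as a target of Wnt signalling, had 6.14 in B-Gal negative cells and 5.56, under the floor, in B-Gal positive cells. Its difference was -0.58, at least 1.46-fold lower as a bound from the floor. Whether this bears on the TCF reporter was not tested.

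The 5 death-domain receptors went in different directions. Tnfrsf1a, the widely expressed TNF receptor, had 10.26 and 10.19, a difference of -0.06, while its ligand Tnf and the other TNF receptor were higher. Fas, the receptor of Fas ligand, had 7.87 and 7.94, a difference of 0.07. Each differed by 1.05-fold. Tnfrsf21, the receptor DR6, had 8.51 and 9.84 and was 2.51-fold higher in B-Gal positive cells. Tnfrsf10b, the mouse death receptor for TRAIL, had 7.23 in B-Gal negative cells and 5.38, under the floor, in B-Gal positive cells, at least 3.12-fold lower. Tnfrsf25, the receptor of Tnfsf15, was close to the floor on both arrays (5.48 and 5.79).

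All 3 decoy receptors were lower on the positive array, where 6275 of the 13784 expressed genes had a negative difference. At least 2-fold lower were 2 of the 3, beside 12.7% of expressed genes. Of the 2 decoys above the floor on both arrays, 1 was at least 2-fold lower, beside 10.6% of such genes. Tnfrsf23, a mouse decoy receptor for TRAIL, had 9.88 and 7.41 and was 5.55-fold lower, the largest difference of the 36 genes in this direction. Its sister gene Tnfrsf22, also a TRAIL decoy, had 7.04 and 6.50, a difference of -0.53. Tnfrsf11b encodes osteoprotegerin, the secreted decoy that keeps RANK ligand from RANK and also binds TRAIL. It had 7.45 in B-Gal negative cells and 5.52, under the floor, in B-Gal positive cells, at least 3.64-fold lower. Tnfrsf26, a related mouse receptor next to Tnfrsf22 whose ligand is not well known, had 8.22 and 7.68, a difference of -0.55.

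**Figure D2:**
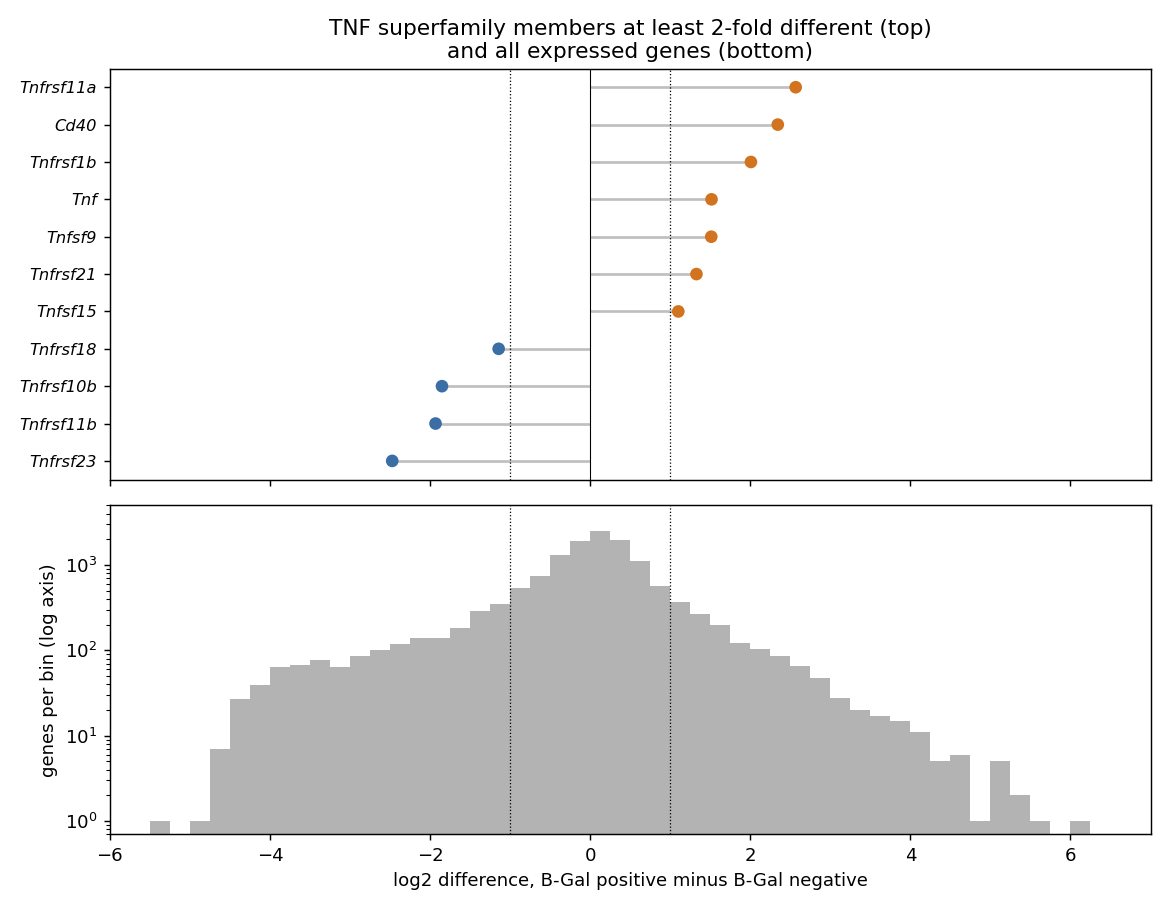
Log2 difference, B-Gal positive minus B-Gal negative (x axis), of the 11 members at least 2-fold different (top, orange higher and blue lower) above the number of expressed genes in each bin of difference (bottom, log axis), with dotted lines at 2-fold. The members run from -2.47 to 2.57, inside the spread of the 13784 expressed genes.

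The members' differences were set beside those of macrophage and fibroblast markers. The 12 macrophage markers above the floor on both arrays differed by 2.09 or more, up to 5.60 for Mrc1 (48.5-fold), and Cd163, under the floor on the negative array, was at least 30.9-fold higher. The median of the 13 was 3.52, and only Tnfrsf11a and Cd40 (2 of the 7 higher members) exceeded the lowest of them. The log2 of the summed macrophage marker level was 12.37 in B-Gal negative and 15.84 in B-Gal positive cells, and 12 of 13 were above the floor on the negative array. The 10 fibroblast markers differed by -4.32 (Pdgfra) to -1.91, with a summed level of 16.41 and 13.92. All 10 exceeded the floor on the positive array too, and Tnfrsf23 lay in the range of their differences. Tnfrsf11b lay in that range on deposited values (-1.93), but its positive value was under the floor. With that value raised to the floor its difference was -1.86, a bound that cannot place it inside or outside the range. The part of cell composition in the members' differences was not tested.

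The other cell types also moved. Of 8 mural markers 7 were at least 2-fold lower, and of 8 endothelial markers 6 were. Among the 7 mast cell markers expressed, 7 were at least 2-fold lower, Cpa3 by at least 10.2-fold. Of 7 expressed neutrophil markers 4 were lower by this threshold, S100a9 by 10.6-fold, and 0 higher. Of 7 expressed dendritic cell and MHC class II markers, Itgax, Cd74 and H2-Ab1 (3 of 7) were higher by at least 2-fold and 0 lower. The other 4 had negative differences under 2-fold, and the median of the 7 was -0.18. Keratinocyte markers had 1 of 6 expressed members higher, Itga6, and 2 lower, Krt5 and Krt14, and Krt1 and Krt6a were under the floor on both arrays.

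Ligands and their receptors were then set side by side, from a list of 25 textbook pairs of which 22 had a probe set for both genes. Both genes were expressed in 17 pairs, with the same sign in 10 and opposite signs in 7. Under a loess fit, which turned Tnfsf13b from 0.05 to -0.03, it was 7 with the same sign and 10 with opposite signs. Pairs share genes and are not independent. Tnf and Tnfrsf1b were the only one of these pairs in which both were at least 2-fold higher, by 1.52 and 2.01 on the log2 scale. In 0 of these pairs were both at least 2-fold lower. The list did not hold Eda with its receptors Edar and Eda2r, nor Tnfsf10 with the decoys Tnfrsf22 and Tnfrsf23, and the counts depend on it. Eda and Eda2r differed by -1.15 and -2.75 on deposited values, both under the floor on the positive array.

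The RANK axis went apart gene by gene. The receptor Tnfrsf11a differed by 2.57, the ligand Tnfsf11 by -0.46 and the decoy Tnfrsf11b by -1.93. The receptor value was thus higher and the decoy value lower in B-Gal positive cells, with the ligand above the floor on both arrays. In the TRAIL axis the ligand Tnfsf10 differed by 0.29, the death receptor Tnfrsf10b by -1.85, and the decoys Tnfrsf23 and Tnfrsf22 by -2.47 and -0.53. Signalling and decoy receptors for TRAIL were both lower.

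For CD40 and FAS, the receptors were measured above the floor on both arrays and the ligands Cd40lg and Fasl were not on either. Tnfsf9 and Tnfrsf9 differed by 1.51 and -0.49. In the BAFF axis the ligand differed by 0.05 and the receptors Tnfrsf13b, Tnfrsf17 and Tnfrsf13c by 0.93, 0.48 and 0.14. The pair Tnfsf14 and Tnfrsf14 differed by 0.66 and 0.93, on the same side.

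**Figure D3:**
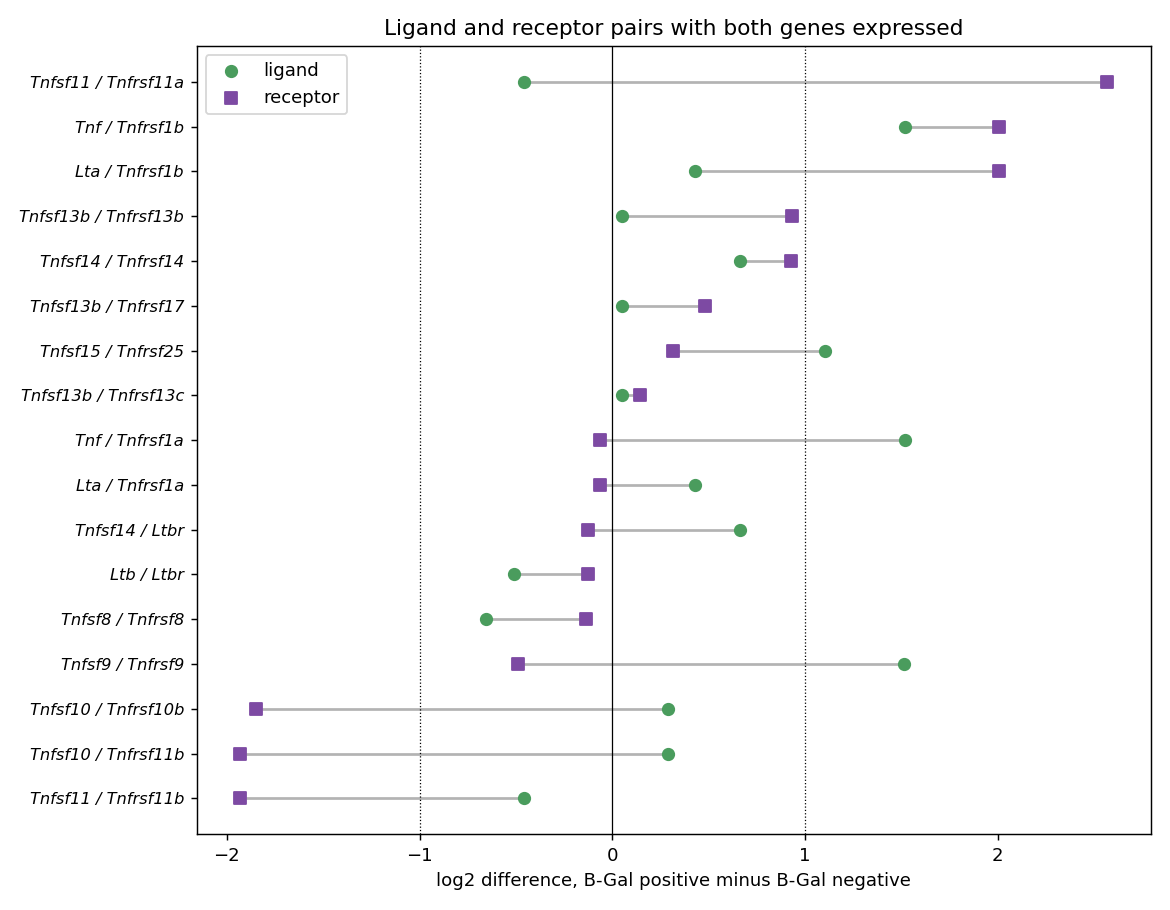
Log2 difference, B-Gal positive minus B-Gal negative (x axis), of the ligand (green circle) and the receptor (purple square) in the 17 pairs with both genes expressed, sorted by receptor, with dotted lines at 2-fold. Tnf and Tnfrsf1b both lie right of the upper line, and Tnfsf11 and Tnfrsf11a lie on opposite sides of 0.

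Family genes under other symbols were followed from a list of 8. Eda2r, a receptor of ectodysplasin, had 7.38 in B-Gal negative and 4.63 in B-Gal positive cells and was at least 3.46-fold lower. The ligand gene Eda itself, known from hair follicle development, had 6.27 and 5.11, at least 1.60-fold lower, and Edar, its main receptor, lay at the floor (5.56 and 5.66). Relt had 6.41 and 7.15, a difference of 0.74. Ltbr, the lymphotoxin beta receptor, differed by -0.13, and Ngfr, the low-affinity neurotrophin receptor, by -0.18, both above the floor on both arrays. Cd27 and Cd70, a receptor and ligand of lymphocytes, were under the floor on both arrays. In this list 0 genes were at least 2-fold higher and 2, Eda2r and Eda, lower on deposited values, beside 9.92% and 12.7% of expressed genes. As a bound from the floor, Eda did not reach 2-fold.

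Several members are chromosomal neighbours, and neighbours did not always share a direction. Ltb, Tnf and Lta lie next to each other and differed by -0.51, 1.52 and 0.43. Tnfrsf1b and Tnfrsf8, also adjacent, differed by 2.01 and -0.14, and Tnfsf15 and Tnfsf8 by 1.10 and -0.65. The cluster of Tnfrsf26, Tnfrsf22 and Tnfrsf23 was lower throughout (-0.55, -0.53 and -2.47), and so were Tnfrsf4 and Tnfrsf18 (-0.67 and -1.14).

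The sequences before the start sites of 4 of these genes are shown: the neighbours Tnf and Ltb, which differed in opposite directions, and Tnfrsf11a and Tnfrsf23, which had the largest difference each way. They are the 250 bases before the RefSeq start in GRCm38.p6, read 5′ to 3′ on the gene's strand, and capitals mark a kappaB motif (GGGA and TTCC with any 2 bases between them) or the letters TATAAA of a TATA box, searched on both strands. Tnf lies at chr17:35202008-35202257 (minus strand), Ltb at chr17:35194257-35194506 (plus), Tnfrsf11a at chr1:105780473-105780722 (plus) and Tnfrsf23 at chr7:143685876-143686125 (minus).
Tnf: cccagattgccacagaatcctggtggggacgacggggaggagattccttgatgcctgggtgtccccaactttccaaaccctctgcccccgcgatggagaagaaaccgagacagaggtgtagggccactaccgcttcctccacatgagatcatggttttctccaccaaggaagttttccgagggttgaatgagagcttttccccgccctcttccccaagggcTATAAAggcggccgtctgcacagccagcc
Ltb: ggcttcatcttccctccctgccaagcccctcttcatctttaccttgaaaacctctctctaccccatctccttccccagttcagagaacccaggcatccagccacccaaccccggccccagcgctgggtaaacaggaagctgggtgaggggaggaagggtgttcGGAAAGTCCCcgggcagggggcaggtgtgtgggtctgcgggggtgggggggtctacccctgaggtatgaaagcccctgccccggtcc
Tnfrsf11a: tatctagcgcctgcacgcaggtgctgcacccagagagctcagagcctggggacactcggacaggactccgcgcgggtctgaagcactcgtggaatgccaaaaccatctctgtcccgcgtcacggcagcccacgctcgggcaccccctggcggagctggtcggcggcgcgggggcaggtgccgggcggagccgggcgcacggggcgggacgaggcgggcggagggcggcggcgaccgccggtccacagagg
Tnfrsf23: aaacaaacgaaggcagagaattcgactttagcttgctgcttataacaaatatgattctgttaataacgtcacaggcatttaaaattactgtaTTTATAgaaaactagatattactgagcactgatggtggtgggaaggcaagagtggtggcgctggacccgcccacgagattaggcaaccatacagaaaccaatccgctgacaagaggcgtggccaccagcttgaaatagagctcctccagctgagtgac

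In Tnf, TATAAA began 29 bases before the start, in Tnfrsf23 the marked letters are its reverse complement, 158 bases before the start, and the kappaB match of Ltb began 87 bases before it. Tnfrsf11a held no marked letters and was rich in G and C (73.6%, with 31 CpG), where Tnfrsf23 had 44.8% and 8 CpG. Medians over all 32851 promoters of the table were 52.4% and 6 CpG. RefSeq promoters, here with 50 bases after the start as well, matched 28 of the 36 members (32 promoters). The kappaB letters stood in 1 of the 32, against 1.47% of all promoters. The AP-1 letters TGANTCA stood in 6 promoters of 5 members (7.81% of all), the PU.1 core GAGGAAGT in 1 (3.20%), the TCF letters CTTTGAT or CTTTGAA in 3 (8.65%) and TATAAA in 6 (13.6%). The TCF matches were in Fas, Tnfrsf19 and Tnfrsf9, and AP-1 matches in Fas, Tnfrsf8, Tnfrsf9, Tnfsf13b and Tnfsf14. Of the 7 members at least 2-fold different that had a promoter, 0 held the kappaB, AP-1, PU.1 or TCF letters in this window. With shares of 1.47% to 8.65% of all promoters for each motif, 0 of 7 says little. Other forms of the kappaB motif were not searched. TATAAA and the 4 genes shown were chosen after the data were seen.

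Pathway genes, from ligand shedding to genes induced by TNF, were at least 2-fold higher more often than lower. Over 6 lists with 72 expressed genes together, 16 were higher and 9 lower, beside 9.92% and 12.7% of expressed genes. In all these were 34.7%, beside 22.6% of expressed genes, with a median of 0.48 beside 0.06. By this threshold the list of TNF-induced genes went the other way, with 1 higher and 5 lower, but its median was 0.45. The lists were written with these data known.

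Of 9 measured NF-kappaB factors and inhibitors, 3 were at least 2-fold higher (33.3%, beside 9.92% of expressed genes) and 0 lower. The other 6 had positive differences under 2-fold, and 53.9% of all expressed genes had a positive difference. Rel, the c-Rel subunit, had 9.77 and 11.46 and was 3.24-fold higher. The inhibitor genes Nfkbie and Nfkbib, which hold NF-kappaB in the cytoplasm, were 2.87-fold and 2.51-fold higher, and Nfkbia, which NF-kappaB itself induces, had 12.17 and 12.90, a difference of 0.74.

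Of 8 brakes of the pathway, 3 were at least 2-fold higher and 1 lower, beside 9.92% and 12.7% of expressed genes. Tnip3, a partner of the ubiquitin-editing enzyme A20, had 7.06 and 10.22 and was 8.97-fold higher, the largest difference of these lists on that side. Tnip2 was 2.12-fold higher and Tnfaip3, which encodes A20, 2.03-fold higher (11.58 and 12.60). Otud7b, a deubiquitinase, was 2.02-fold lower.

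Of 21 adaptors, kinases and ligases 3 were at least 2-fold higher and 1 lower (19.0%, near the 22.6% of all expressed genes). Map3k5, the stress kinase ASK1, was 2.17-fold higher, Traf1 2.14-fold and the IkappaB kinase gene Ikbkb 2.08-fold, while Traf4 was 2.27-fold lower. Among 10 death effectors 3 were at least 2-fold higher and 0 lower, beside 9.92% and 12.7% of expressed genes. Cflar, the caspase-8 inhibitor FLIP, had 9.14 and 10.84 and was 3.25-fold higher, Bid, which links death receptors to mitochondria, was 2.38-fold higher, and Casp8, the initiator caspase, 2.09-fold.

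Genes that govern shedding of ligands and receptors split. Adam17, the protease that releases TNF, had 10.07 and 11.26 and was 2.28-fold higher. Its partner Rhbdf2 (iRhom2, the form that prevails in macrophages) was 3.35-fold higher, while the related Rhbdf1 was 5.23-fold lower. Timp3, an inhibitor of ADAM17 made by stromal cells, had 9.56 and 6.19 and was 10.3-fold lower. In all, 3 of 6 were higher and 2 lower by at least 2-fold, beside 9.92% and 12.7% of expressed genes.

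Of 18 expressed genes known to be induced by TNF, 1 was at least 2-fold higher and 5 were lower, beside 9.92% and 12.7% of expressed genes, with a median of 0.45. Cxcl10, named after its value was seen, is the higher one (2.76-fold). Tnfaip6, a hyaluronan-binding protein of stromal cells, was 13.3-fold lower, Il6 3.74-fold, Csf2 3.55-fold and the adhesion molecule Vcam1 2.93-fold lower. In the same arrays fibroblast and endothelial markers were lower, as given above, and their part in this was not tested.

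**Figure D4:**
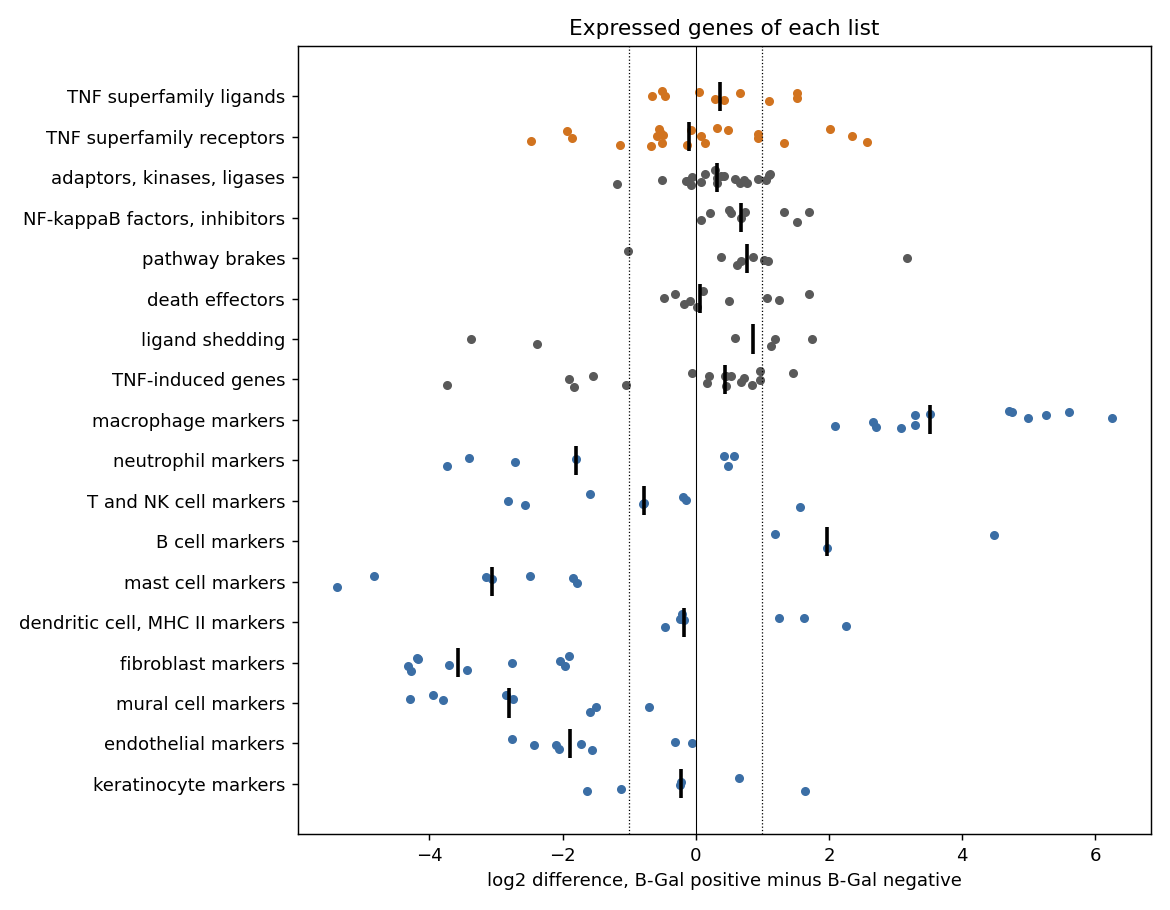
Log2 difference, B-Gal positive minus B-Gal negative (x axis), of each expressed gene (points) of the TNF superfamily (orange), pathway lists (grey) and cell type markers (blue), with the list median as a black bar and dotted lines at 2-fold. The superfamily and pathway medians lie between -0.10 and 0.86, while the macrophage median is 3.52 and the fibroblast median -3.57; points are spread vertically at random.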

How the data were processed

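Each group gave 1 Affymetrix Mouse Gene 1.0 ST array of biotin-labelled total RNA, per the labels and the design text. The values the authors deposited, 1 for each array and probe set, were taken as log2 expression, because they ran from 1.16 to 14.83. Partek was the software, per the submitters' processing notes. The sources used here do not state its settings, the normalization or the base of the logarithm. Folds depend on the log2 reading. No scaling was added.

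Of 28853 probe sets, 21789 named 1 gene (19938 genes), 1621 named several and 5443 were not named in the platform annotation. Of several probe sets for a gene, the one with the highest mean was used; each member had 1. Symbols were checked by gene ID against a RefSeq table of GRCm38.p6 (21698 probe sets matched, 0 symbols differed).

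The floor was the 95th percentile of 1194 olfactory and vomeronasal receptor genes over both arrays, and a gene above it on at least 1 array was counted as expressed, the receptor genes themselves left out. Every member could be named, with up to 4 expressed genes of each other list, those with the largest differences, and all relatives under other symbols. Markers under the floor on both arrays are named as such, outside this rule, and Cxcl10 is also named outside it. Members, lists and motifs were chosen with earlier results of these data known. Scaling, an offset, floors, probe set averaging and thresholds were varied. Analyses used Python 3.11.15, pandas 2.3.3 and statsmodels 0.14.6.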

Additional observations from a re-analysis of the deposited data

How the results depend on the processing

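No replicate could be left out and no paired analysis was possible because each group had 1 array, so none of the differences carries an error. Centred array medians, which shift every difference alike, and quantile normalization gave the same 7 higher and 4 lower members. The mean over probe sets gave them too, but could not change them, because each member had 1 probe set. No filter on low values and a higher floor (99th percentile) also gave the same members. Both leave each difference unchanged and alter only which genes count as expressed. A loess fit moved the median over all expressed genes from 0.06 to -0.04 and the members' median to -0.03. It left 6 higher members, without Tnfsf15, and made 1 ligand at least 2-fold lower, Fasl at -1.01. An offset of 32 and values raised to the floor each left 6 higher and 3 lower members, without Tnfsf15 and Tnfrsf18. At 1.5-fold 1 ligand was lower (Tnfsf8), and 10 members were higher and 6 lower, against 38.8% of expressed genes in either direction. At 4-fold 3 members were higher (0 of them ligands) and 1 was lower, a receptor, against 8.73%. Over genes above the floor on both arrays, an alternative chosen after seeing the data, 1 member was lower, the receptor Tnfrsf23. No called member changed sign in the alternatives run.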

Other observations

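Of the 28853 probe sets, 614 carried the same value on both arrays to the last deposited digit. None of the members was among them (0 of 36), but the keratin gene Krt1, a marker of differentiated keratinocytes, was, at 5.15 on the log2 scale.

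The neighbouring ligand genes Tnfsf18 and Fasl, both under the floor on both arrays, had differences of the same size and opposite sign, 0.79 and -0.79 on the log2 scale.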
